A study of Mus musculus with 6 samples.

Results

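The SLC25 family is the set of carriers that move metabolites across the inner mitochondrial membrane. Of its genes, 38 were followed here in the cerebral cortex of quaking knockout and control mice. They were the rows whose symbol starts with Slc25a and a number, apart from Slc25a18 and Slc25a22, and whose TPM averaged 1 or more across the 6 libraries. TPM is a transcript abundance scaled by gene length that sums to the same total in every library. The files held 47 such rows among 35857 genes; 2 were left out by name and 7 lay below the level filter. RNA with a poly(A) tail was sequenced from the cortex of C57BL/6 mice at postnatal day 7, in 3 control libraries labelled wild type and 3 libraries labelled Qk-/-. The files call the knockout group Qk_KO. Whether the deletion covered all cells or only some of them, and by which allele, is not given in the sources used here. Qk, which encodes the RNA-binding protein quaking, served as a check of the labels. It was lower in all 3 knockout libraries (14.6 to 15.4 TPM) than in the controls (36.5 to 43.2 TPM). Qk RNA was thus reduced in the knockouts but not absent, and quaking protein was not measured here.

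Mitochondria make most of the ATP of a neuron or a glial cell, yet their inner membrane is closed to charged metabolites. Each SLC25 carrier opens it to a small set of substrates, usually by exchanging 1 molecule for another. Through them pass ADP and ATP, phosphate, the acids of the citric acid cycle, amino acids, fatty acids bound to carnitine, nucleotides, cofactors and iron. Cells of the brain depend on the exchange of aspartate for glutamate, which is part of the malate-aspartate shuttle that carries reducing power into the matrix. Quaking binds RNA, often in the 3' untranslated region (UTR), and affects the splicing, stability and translation of its targets.

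None of the 38 carriers passed the test between knockout and control cortex. The test was limma on log2(TPM + 1) across all 14994 genes that averaged 1 TPM or more, with a Benjamini-Hochberg adjusted p of 0.05 as the threshold, and 0.387% of all genes passed it (0.287% lower and 0.1% higher in the knockout). At an unadjusted p under 0.05 the count of carriers was also 0 of 38, beside 8.72% of all genes. The lowest p of any carrier was 0.0727 (Slc25a30; adjusted p = 0.619). The knockout values lay wholly outside the control values for 2 of 38 carriers, Slc25a24 and Slc25a25, both higher in the knockout, beside 14.2% of all genes in either direction (5.2% higher and 8.98% lower in the knockout). The median log2 change, knockout minus control, was −0.03 over the carriers and −0.03 over all genes, and the median size of the change regardless of sign was 0.07 and 0.11. A p that misses the threshold does not show that levels were equal, so 95% intervals are given for the changes. Where 3 values of a group are listed, they are those of replicates 1, 2 and 3 in that order. In whole tissue, fewer cells of a type and less RNA per cell cannot be told apart.

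**Figure D1:**
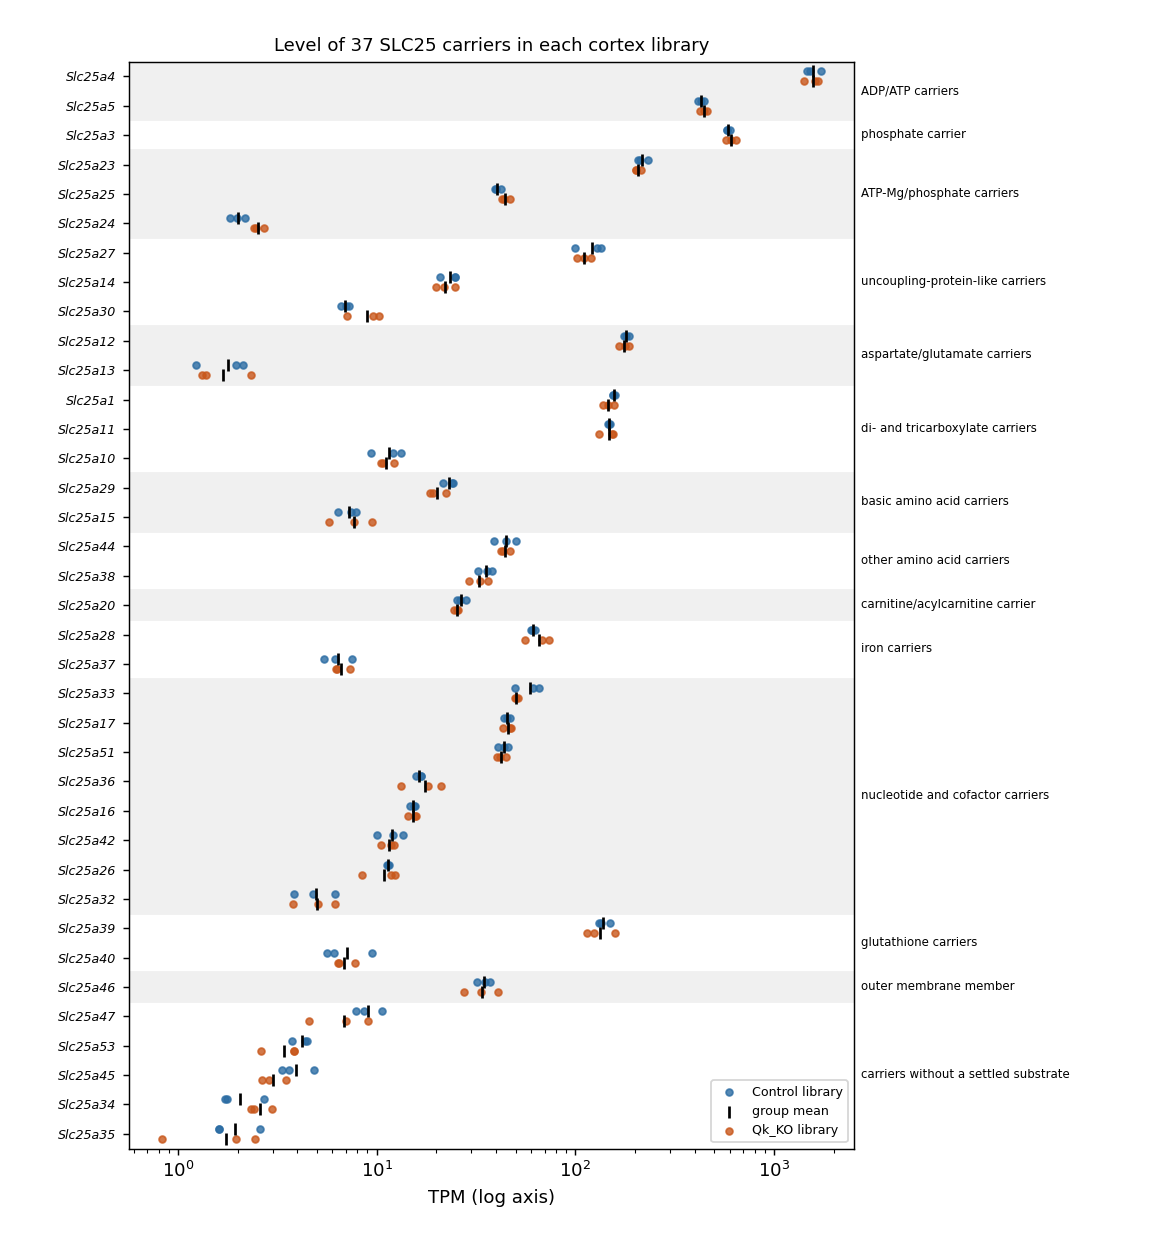
TPM (log axis) of each of 37 carriers in the 3 control and the 3 knockout libraries, ordered by substrate; each point is a library and each black bar a group mean. Levels span from 1.73 to 1559 TPM in the mean, and the points of the 2 groups overlap in all rows but Slc25a24 and Slc25a25.

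The motif that quaking prefers was looked for in the carriers' own 3' UTRs, since the knockout targets the gene of this binding protein. The search took the longest 3' UTR of each gene in GENCODE M21 (GRCm38), on the transcript's strand only. It used the 6-base cores ACTAAC and ACTAAT (U in RNA written as T), and then cores with a short element, TAAC or TAAT, separated from them by 1 to 20 bases. A core stood in 15 of 38 carriers (39.5%), beside 34.5% of 13723 tested genes with a 3' UTR, at 0.342 cores per kilobase in both sets. A core with the short element stood in 6 of 38 (15.8%), beside 14.2% of genes. These are matches of letters, not shown binding sites. The 6 stretches of 30 bases are printed because they are the carriers' closest matches to a quaking element, with core and short element in capitals. In Slc25a32 the short element is also the end of a second core, ACTAAC, directly after the first, so that stretch holds 2 adjoining cores:
Slc25a4, chr8:46207132-46207161, minus strand: tgcccttatTAACtACTAACagactgaaaa
Slc25a12, chr2:71271797-71271826, minus strand: tttgatatACTAACatttTAATtttaatat
Slc25a20, chr9:108684390-108684419, plus strand: TAATacctaagaacagcccacctACTAACc
Slc25a32, chr15:39094948-39094977, minus strand: ggatgctagACTAATacTAACtcttctgat
Slc25a35, chr11:68974160-68974189, plus strand: agaccACTAACtccaggatcTAATgctggg
Slc25a36, chr9:97075235-97075264, minus strand: ttcacACTAACttttttgtccTAATaatag

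The core of the Slc25a4 site starts 316 bases into a 3' UTR of 666 bases, and 1 base separates it from the short element. Of the 1468 tested genes with a 3' UTR within 20% of that length, 5.93% held such a pair. The same share was 6.59% for the length of Slc25a20, 20.1% for Slc25a35, 30.2% for Slc25a36, 30.3% for Slc25a12 and 33% for Slc25a32. Between control and knockout, the log2 changes of the 6 carriers with the pair ran from −0.13 (Slc25a35) to 0.06 (Slc25a36), with a median of −0.02. Across all tested genes with the pair the median was −0.05. The 15 carriers with a core had changes of −0.13 to 0.31. No carrier that held the motif passed the test, and neither did any that lacked it. Slc25a18, an astrocyte-rich glutamate carrier left out by the rule, also holds the pair and was picked after its values were seen. It fell from 90.9 ± 13.2 to 28.4 ± 4.17 TPM (SD, n = 3), with an adjusted p of 0.00153 (limma). Its log2 change of −1.65 was the lowest of all 1952 tested genes with the pair, whose median was −0.05. Slc25a22, also left out by the rule, holds no core and had a log2 change of −0.06 (limma, adjusted p = 0.899). Whether the motif has a part in either value was not tested.

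The ADP/ATP carriers, which bring ADP into the matrix and send ATP out, made up 48.1% of the family's summed TPM in control and 48.7% in knockout cortex. Slc25a4 (ANT1, the form of heart, muscle and brain) was the most abundant carrier. Its level was 1721, 1505 and 1455 TPM in the 3 controls and 1665, 1595 and 1415 TPM in the 3 knockouts. The groups overlapped over nearly their whole range, and the means were 1560 ± 142 and 1558 ± 129 TPM (SD, n = 3). The 95% interval of its log2 change reached from −0.22 to 0.21. Slc25a5 (ANT2, the form of dividing cells) was at 443, 412 and 430 TPM in the controls and 461, 444 and 425 TPM in the knockouts, again with overlap (log2 change 0.05, interval −0.10 to 0.20). The level of Slc25a4 was 3.38 to 3.89 times that of Slc25a5 in controls and 3.33 to 3.61 times in knockouts. Their coding sequences are 77.5% identical, with a longest identical stretch of 20 bases. Slc25a5 has an annotated processed pseudogene, Slc25a5-ps (chr14:11161529-11181110, plus strand, GRCm38), whose transcripts are 90.3% to 94.4% identical to its coding sequence over the aligned part, with an identical stretch of 97 bases. How the authors' counting divided reads between this pair was not tested, so the level of Slc25a5 is uncertain to that extent. Only pseudogenes with a carrier's symbol followed by -ps were looked for, so copies of any carrier under other names would have been missed. The third ADP/ATP carrier, Slc25a31, the form of the testis, was between 0 and 0.52 TPM and was not tested.

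Phosphate for ATP synthesis enters through Slc25a3, the second most abundant member. Its levels were 578, 580 and 601 TPM in controls and 643, 571 and 606 TPM in knockouts. Knockout replicate 2 was the lowest of the 6 libraries and knockout replicate 1 the highest, so the groups overlapped. The log2 change was 0.05, with an interval of −0.11 to 0.21.

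The ATP-Mg/phosphate carriers, which set the matrix pool of adenine nucleotides and respond to calcium, held both carriers whose groups did not overlap. Slc25a25 was at 42.3, 39.8 and 39.4 TPM in controls and 42.8, 46.7 and 43.9 TPM in knockouts. All knockout libraries were above all controls, though control replicate 1 and knockout replicate 1 nearly met. The log2 change of Slc25a25 was 0.13 ± 0.08 (SE; limma, adjusted p = 0.704). Slc25a24, a paralog at far lower level, was at 1.83, 2.19 and 1.99 TPM in controls and 2.43, 2.71 and 2.47 TPM in knockouts. Its change of 0.24 on the log2(TPM + 1) scale, which understates changes of low genes, did not pass (adjusted p = 0.77, interval −0.17 to 0.65). The most abundant of the group, Slc25a23, moved the other way in the mean, from 216 ± 13.5 to 205 ± 6.87 TPM (SD, n = 3), with overlap of the groups. The ratio of Slc25a23 to Slc25a25 was 4.99, 5.17 and 5.87 in controls and 4.72, 4.30 and 4.86 in knockouts. This ratio was 1 of 9 between related carriers that were computed, was singled out after its values were seen, and was not tested. Ratios of Slc25a25 to Slc25a24 also did not overlap (18.2 to 23.1 in controls, 17.2 to 17.8 in knockouts), and the other 7 did. Both of these ratios contain Slc25a25, whose own groups did not overlap, so they are not independent of the values above.

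Carriers that resemble the uncoupling proteins included the one of lowest p. Slc25a30 (KMCP1) was at 7.03, 7.23 and 6.61 TPM in the controls and 10.3, 9.54 and 7.06 TPM in the knockouts. Knockout replicates 1 and 2 stood above every control, while knockout replicate 3 lay among them. The mean went from 6.96 ± 0.316 to 8.97 ± 1.69 TPM (SD, n = 3; log2 change 0.31, the highest of the family, interval −0.04 to 0.66). Slc25a27 (UCP4), a form of neurons, was at 129, 134 and 99.2 TPM in controls and 101, 120 and 110 TPM in knockouts. Control replicate 3 was the lowest library of all, so that the groups overlapped despite means of 121 and 110 TPM. Slc25a14 (BMCP1, UCP5) was at 23.5 ± 2.34 and 22.2 ± 2.50 TPM.

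Among the carriers of the malate-aspartate shuttle, the aspartate/glutamate carrier Slc25a12 (aralar, the form of brain and muscle) was at 185, 179 and 176 TPM in controls and 166, 186 and 177 TPM in knockouts. Both the lowest and the highest value were in the knockout group. The log2 change was −0.03, with an interval of −0.19 to 0.13. Its paralog Slc25a13 (citrin, the form of liver) was the member nearest the level filter from above, at 1.24 to 2.13 TPM in controls and 1.33 to 2.34 TPM in knockouts. Slc25a12 was at 70.8 to 142 times its level, depending on the library. Slc25a11, the oxoglutarate/malate carrier of the same shuttle, varied least among controls of all 38 carriers. Its control values were 146, 147 and 148 TPM (CV 0.96%) and its knockout values 132, 153 and 155 TPM, on either side of the controls.

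Slc25a1, which exports citrate for the synthesis of lipids in the cytosol, was at 155, 155 and 159 TPM in controls and 157, 146 and 137 TPM in knockouts. Knockout replicates 2 and 3 were below all controls and knockout replicate 1 was among them (log2 change −0.09, interval −0.26 to 0.07). The dicarboxylate carrier Slc25a10 was at 11.6 ± 2.03 and 11.2 ± 0.956 TPM (SD, n = 3). Slc25a20, which exchanges acylcarnitine for carnitine and so feeds fatty acid oxidation, was at 25.3, 26.4 and 28.1 TPM in controls and 25.5, 24.6 and 25.6 TPM in knockouts. The groups overlapped through control replicate 1, and the interval of the log2 change was −0.26 to 0.12.

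**Figure D2:**
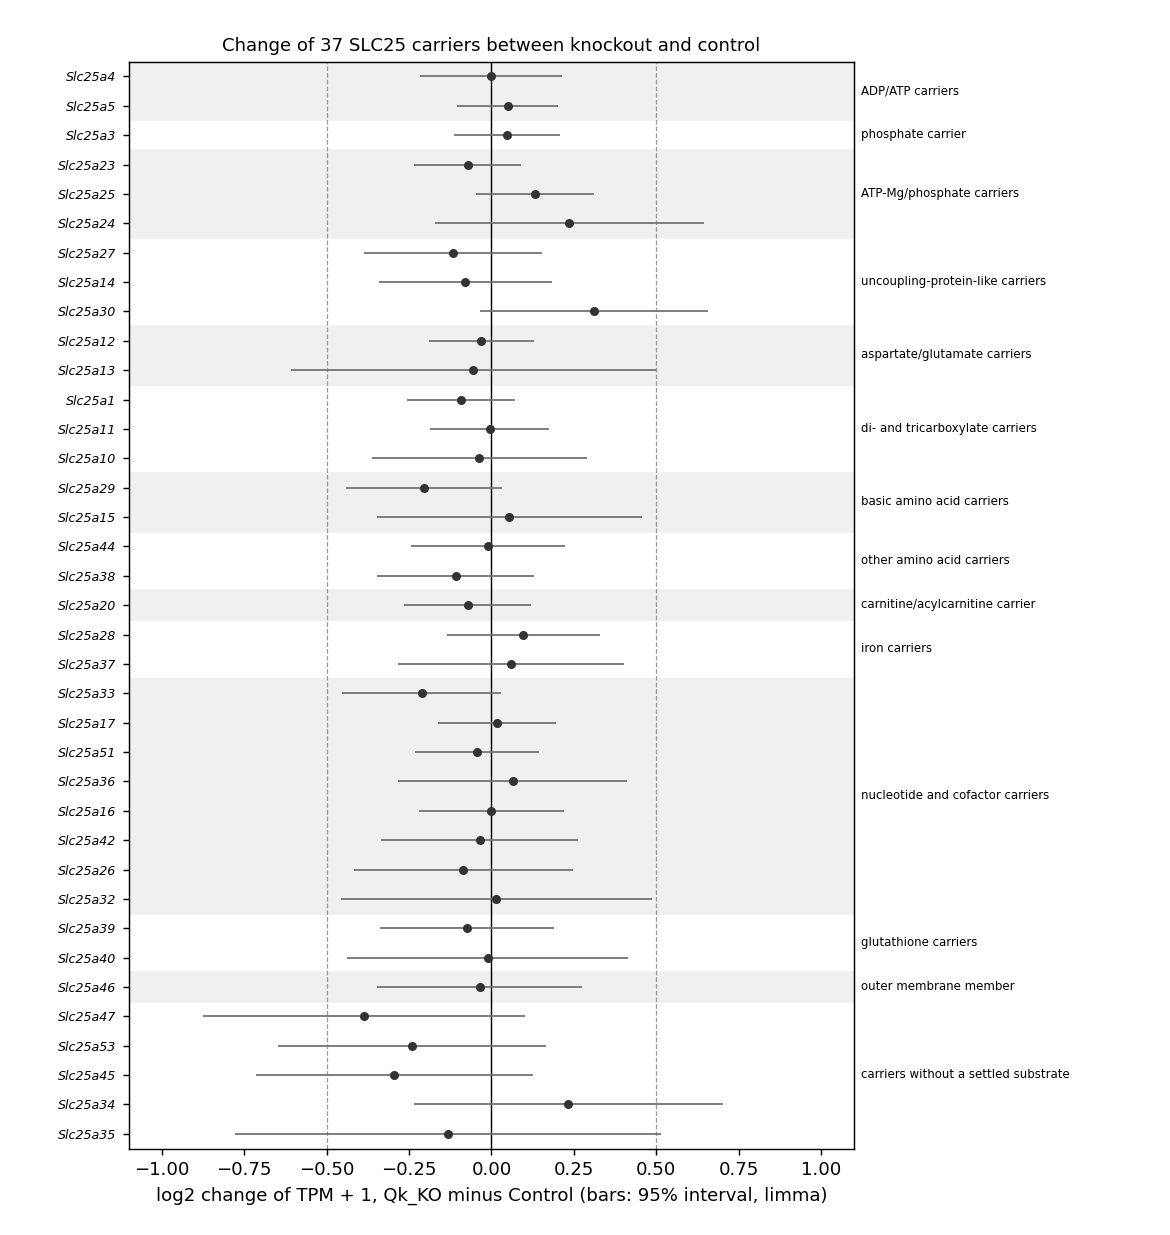
Log2 change of TPM + 1, knockout minus control, for each of 37 carriers, with its 95% interval from limma (3 libraries per group); dashed lines mark −0.5 and 0.5. All 37 intervals drawn include 0, and 29 of them lie between the dashed lines.

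Of the carriers of other amino acids, which number 4 here, Slc25a29 had the lowest p. A carrier of lysine, arginine and other basic amino acids, it was at 21.5, 24.0 and 24.2 TPM in controls and 22.3, 18.5 and 19.3 TPM in knockouts. Knockout replicates 2 and 3 were below every control, knockout replicate 1 was not, and the log2 change of −0.21 had an adjusted p of 0.636 (limma). Slc25a15, the ornithine carrier, was at 7.23 ± 0.738 and 7.66 ± 1.88 TPM. Slc25a44, a carrier of branched-chain amino acids, was at 44.7 ± 5.51 and 44.2 ± 2.36 TPM, and Slc25a38, which brings in glycine for the synthesis of haem, at 35.5 ± 2.87 and 32.9 ± 3.52 TPM (all SD, n = 3).

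The iron carriers were led by Slc25a28 (mitoferrin-2), the form of most tissues, with 60.0, 62.6 and 60.2 TPM in controls and 73.2, 67.8 and 55.9 TPM in knockouts. The controls sat close together and the knockouts spread on both sides of them (log2 change 0.10, interval −0.14 to 0.33). Slc25a37 (mitoferrin-1), the form of red blood cell precursors, was at 5.43 to 7.49 TPM in controls and 6.24 to 7.39 TPM in knockouts. The summed TPM of 8 red blood cell markers ranged from 7251 to 12840 in controls and from 4459 to 11150 in knockouts, with Slc4a1 under 1 TPM in the mean, and its part in the level of Slc25a37 was not tested. Among the glutathione carriers, Slc25a39 was at 149, 132 and 134 TPM in controls and 115, 158 and 125 TPM in knockouts, the widest spread of any carrier above 100 TPM in the knockout group (CV 17%). Slc25a40, its paralog, was at 7.08 ± 2.05 and 6.88 ± 0.786 TPM (SD, n = 3).

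Of the 9 carriers of nucleotides and cofactors, Slc25a33, a pyrimidine nucleotide carrier, had the highest level and the lowest p of this group. Its level was 61.4, 65.7 and 49.6 TPM in controls and 50.1, 49.7 and 51.4 TPM in knockouts. Control replicates 1 and 2 stood above the knockouts, and control replicate 3 was the lowest of all 6 libraries. The log2 change was −0.21 (interval −0.45 to 0.03; adjusted p = 0.633). It was −0.33 without control replicate 3 (adjusted p = 0.393), the lowest adjusted p that any carrier reached in the 15 other settings tried. Its value is uncertain in that 14.9% of its exonic bases lie opposite the antisense gene Gm13068. The second pyrimidine nucleotide carrier, Slc25a36, was at 16.4 ± 0.551 and 17.4 ± 3.90 TPM. Slc25a17 of the peroxisome (45.3 ± 1.56 and 45.8 ± 2.46 TPM) and the NAD carrier Slc25a51 (43.5 ± 2.44 and 42.2 ± 2.28 TPM) each had group means within 1 SD of each other. A further 4 were Slc25a16, Slc25a26, a carrier of S-adenosylmethionine, Slc25a32, a carrier of folate and FAD, and Slc25a42, a carrier of coenzyme A. Their means lay between 4.94 and 15.3 TPM in both groups, all with overlap.

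Slc25a46, a member of the outer membrane that takes part in mitochondrial shape and division, was at 31.8, 34.9 and 37.1 TPM in controls and 33.6, 27.7 and 41.0 TPM in knockouts, with the lowest and the highest library both in the knockout group. The 5 carriers whose substrate is not settled were all under 10 TPM and held the 3 lowest log2 changes. Slc25a47, known from liver, was at 10.7, 7.89 and 8.69 TPM in controls and 4.59, 7.01 and 9.06 TPM in knockouts. Knockout replicate 3 lay within the controls, and the log2 change of −0.39, the lowest of the family, did not pass (interval −0.88 to 0.10, adjusted p = 0.671). Slc25a45 went from 3.94 ± 0.801 to 3.01 ± 0.430 TPM and Slc25a53 from 4.20 ± 0.380 to 3.43 ± 0.699 TPM, while Slc25a34 went from 2.07 ± 0.557 to 2.58 ± 0.350 TPM (SD, n = 3). Slc25a35 was at 1.94 ± 0.572 and 1.74 ± 0.827 TPM, and 31.3% of its exonic bases lie opposite exons of Rangrf on the other strand. In all, 10 of 38 carriers share exonic bases with a gene on the other strand (3% to 31.3% of the carrier's own), among them Slc25a23, Slc25a25, Slc25a11 and Slc25a37, each under 10%. Whether the authors' counting used strand is not given in the sources used here, so reads of these carriers and of their partners may not have been told apart.

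The summed TPM of the family differed between groups by less than the spread within them. The sum was 4313, 4041 and 4043 TPM in controls and 4239, 4140 and 3964 TPM in knockouts, 0.396% to 0.431% of a library. The means were 4132 ± 156 and 4114 ± 139 TPM (SD, n = 3), and the groups overlapped. For 31 of 38 carriers the difference of the means was smaller than the larger of the 2 group SDs. The same count was not made over all genes, so it cannot be read as particular to the carriers. By library, knockout replicate 2 was the lowest of the 6 more often than any other (12 of 38 carriers, beside 23.7% of all genes), and control replicate 3 the highest (11 of 38, beside 22.03% of all genes).

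**Figure D3:**
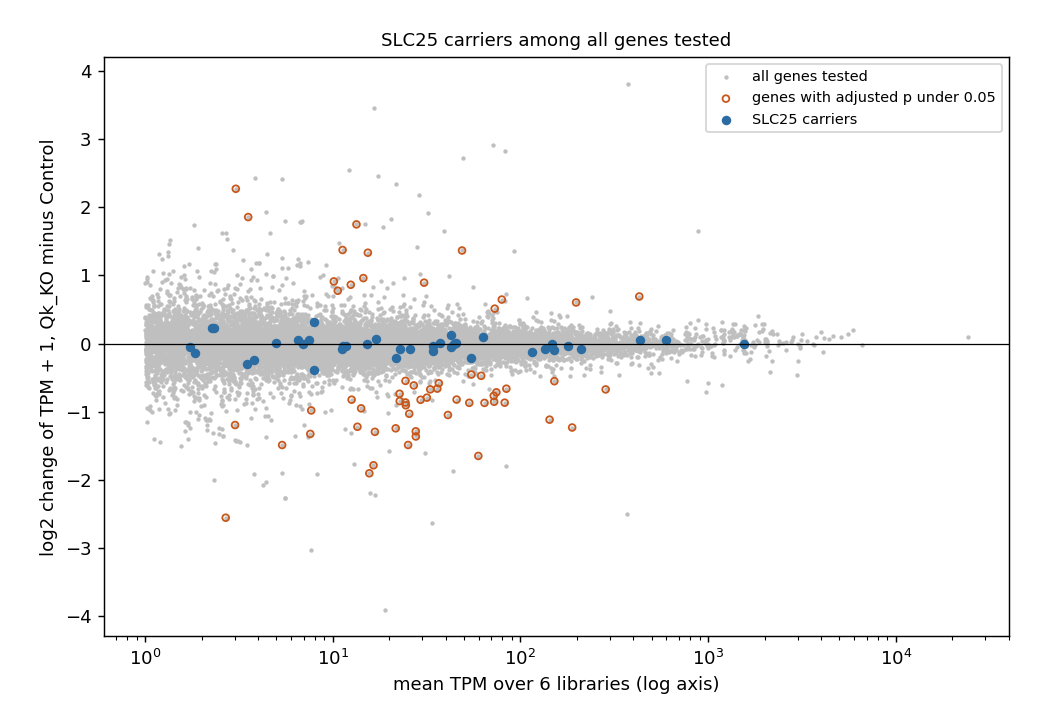
Log2 change of TPM + 1, knockout minus control, against mean TPM (log axis) for all 14994 genes tested (grey), the 58 that passed the threshold (orange rings) and the 38 carriers (blue). The carriers lie between −0.39 and 0.31, and none has a ring.

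How large a change these libraries could have hidden depended on level. For 26 of 26 carriers with a mean of at least 10 TPM, the 95% interval of the log2 change lay within −0.5 to 0.5, and their changes ran from −0.21 to 0.13. Of the 12 carriers under 10 TPM, 4 had an interval that narrow. Over the family, 30 of 38 intervals (78.9%) were within that range, beside 63.6% of all tested genes. Within −1 to 1 were 38 of 38, beside 92.6% of all tested genes. The log2(TPM + 1) scale understates changes of low genes, so for the lowest carriers these intervals allow larger changes of TPM itself. The widest intervals belonged to Slc25a35 (−0.78 to 0.51), Slc25a13 (−0.61 to 0.50) and Slc25a47. Below the level filter lay Slc25a43 (0.14 to 1.11 TPM, the nearest to it), Slc25a2, Slc25a21, Slc25a31, Slc25a41 and Slc25a48, and Slc25a54 was listed at 0 in all 6 libraries.

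Markers of the cortex's cell types were read from the same fit. Of 12 astrocyte markers, 6 were lower in the knockout at the threshold and 0 higher, beside 0.287% and 0.1% of all genes, and the summed level of the 12 was 1288 to 1378 TPM in controls and 952 to 996 TPM in knockouts. Aldh1l1 went the other way without passing, with all knockouts above all controls (log2 change 0.47, adjusted p = 0.139; limma). Of 12 markers of the oligodendrocyte lineage, 4 were lower (Gpr17, Bcas1, Mbp and Cnp), beside 0.287% of all genes. The transcription factor gene Olig2 was higher (log2 change 0.65), 1 of 12, beside 0.1% of all genes. The summed level of these 12 was 556 to 591 TPM in controls and 497 to 528 TPM in knockouts. All 10 neuronal markers were detected, among them Neurod6 and Slc17a7 of cortical projection neurons. None of the 10 passed, with 1 of 10 at an unadjusted p under 0.05, beside 8.72% of all genes (6463 to 7271 and 6866 to 7379 TPM). Nor did any of 8 microglial markers or of 8 endothelial and mural markers. At an unadjusted p under 0.05 these lists had 3 of 8 and 1 of 8, beside the same 8.72%, and the 3 microglial genes went both ways (P2ry12 −0.34, C1qb 0.25 and Tyrobp 0.33 on the log2 scale). Of 7 markers of choroid plexus and ependyma, 1 was higher at the threshold, Foxj1 of ciliated cells (log2 change 0.86), beside 0.1% of all genes. The list's median was −0.30 with 2 of 7 positive, beside 42.98% of all genes. Ttr, the most abundant, was at −0.58 (limma, adjusted p = 0.59). The part of these shifts in the carriers' levels was not tested.

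Genes that act beside the carriers were read from the same fit, and 0 of 91 passed the threshold (limma), beside 0.387% of all genes. At an unadjusted p under 0.05 there were 9 of 91, a share close to the 8.72% of all genes. Of the 3 tested relatives in the family that carry other symbols, Mtch1, a protein insertase of the outer membrane, had the highest level (637 ± 129 and 624 ± 31.3 TPM). Its relative Mtch2 was at 124 ± 10.9 and 141 ± 16.7 TPM, and the uncoupling protein Ucp2 at 44.7 ± 5.04 and 45.5 ± 3.45 TPM (all SD, n = 3). Among 15 genes that import carriers into the inner membrane the median log2 change was −0.01. At an unadjusted p under 0.05 (limma) there were 3 of 15, beside 8.72% of all genes. They went both ways (Timm10 −0.36, Tomm7 −0.32 and Timm10b 0.25). Tomm6, a small subunit of the entry pore, was the most abundant of the 15 (407 ± 41.4 and 415 ± 17.5 TPM). All 4 enzymes of the malate-aspartate shuttle lay within 0.06 of 0 on the log2 scale, with Mdh2, the malate dehydrogenase of the matrix, at 519 ± 25.8 and 537 ± 11.9 TPM.

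The 12 other inner membrane transport proteins had a median log2 change of −0.02, with 1 of 12 positive, beside 42.98% of all genes. Knockout values lay wholly below the controls for 2 of 12, beside 8.98% of all genes. These were Slc8b1, the sodium-calcium exchanger of mitochondria (−0.58, adjusted p = 0.401; limma), and the transporter Abcb10 (−0.26, adjusted p = 0.44; limma), both picked after their values were seen. The most abundant of the 12 was Smdt1, a subunit of the calcium uniporter (348 ± 20.3 and 347 ± 11.4 TPM; SD, n = 3). Fatty acid oxidation and the carnitine shuttle had the lowest median of these lists (−0.10 over 15 genes). Of the 15, 10 were negative, beside 8549 of 14994 genes, and 2 were wholly below the controls, beside 8.98% of all genes. There Cpt1c, the brain form of carnitine palmitoyltransferase, was the most abundant, at 63.8 ± 0.983 and 67.7 ± 4.34 TPM. The 7 ornithine and arginine enzymes had the highest median (0.11), with 5 of 7 positive, beside 42.98% of all genes. Knockout values lay wholly above the controls for 3 of the 7, beside 5.2% of all genes. Oat, which makes glutamate semialdehyde from ornithine in the matrix, was at 102 ± 0.427 and 114 ± 2.85 TPM (adjusted p = 0.522), the highest level of that list. Odc1, the first enzyme of polyamine synthesis, was at 64.9 ± 4.08 and 77.2 ± 4.07 TPM with the lowest p of all 91 (adjusted p = 0.392), and was picked after its values were seen.

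For haem and iron-sulphur cluster synthesis the median over 12 genes was 0.01, and Glrx5, a glutaredoxin that hands on such clusters, had the highest level (160 ± 22.1 and 172 ± 15.7 TPM). ATP synthase and its partners had a median near 0 over 8 genes, led by Atp5b, the catalytic beta subunit (1710 ± 45.3 and 1742 ± 20.4 TPM). Outer membrane channels with citrate synthase (median −0.02, 4 genes) were led by the channel Vdac1 (410 ± 8.80 and 407 ± 33.4 TPM). Genes of mitochondrial biogenesis and dynamics (median −0.04, 11 genes) were led by Fis1, a fission protein (225 ± 17.1 and 228 ± 20.98 TPM).

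**Figure D4:**
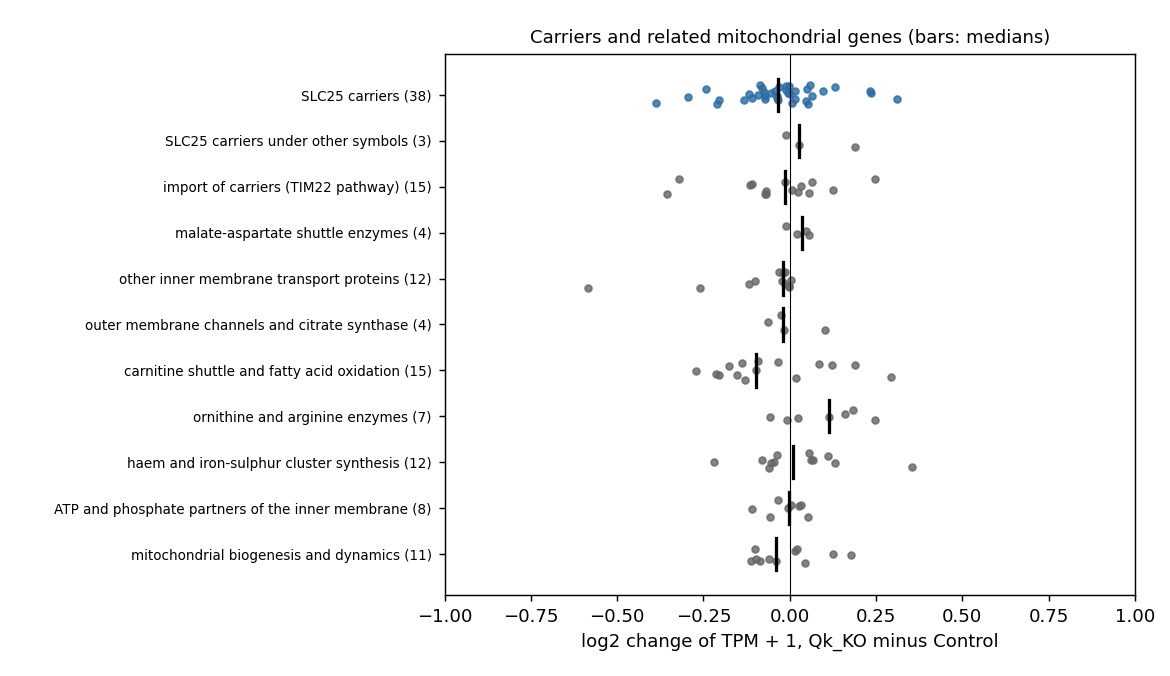
Log2 change of TPM + 1, knockout minus control, for each of the 38 carriers and for the tested genes of 10 lists of related mitochondrial genes (number of genes in brackets); points are genes, offset vertically at random, and black bars are medians. The medians lie between −0.10 and 0.11, and no point passed the threshold.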

How the data were processed

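The authors deposited 1 TPM value per gene and library, with each gene identified by Entrez number and symbol; per the submitters' processing notes the tools were STAR 2.4.1d and RSEM 1.3.0, with the builds mm10 and GRCm38.p4. TPM keeps no depth, so counting error could not be estimated. The sources used here do not give the gene annotation or the use of strand. The design text speaks of brains from 3 control and 3 knockout mice, while the labels number replicates only, so the spread that the tests use is that between libraries, which may be partly technical. TPM was used as deposited. Genes averaging 1 TPM or more were fitted as log2(TPM + 1) with limma 3.58.1 in R 4.3.3 (eBayes with trend, group as the only term), adjusted by Benjamini-Hochberg over 14994 genes. The fit was tested on simulated data.

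The carriers, lists, tests and alternatives were chosen with earlier results of these data known. Named were carriers that passed or had non-overlapping groups, the 5 most abundant, the 3 largest rises and falls above 2 TPM, the leading member of each role and those nearest the filter; of other lists, the most abundant member. The remaining carriers were named to account for the members; the values of 1 are not reported here, though all counts include it. All 38 carriers matched GENCODE M21 (GRCm38), from which positions, coding identity and 3' UTRs were taken. Alternatives were other pseudocounts, filters, scalings and variance models, the replicate number as a block, and leaving out each library.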

Additional observations from a re-analysis of the deposited data

How the results depend on the processing

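None of the 38 carriers (31 with the filter at 5 TPM) and none of the 91 related genes (89 with that filter) passed the threshold in any of the 15 alternatives. At an unadjusted p under 0.05 (limma) the carriers numbered 1 of 38 without the variance trend (Slc25a24), beside 1299 of 14994 genes. They numbered 2 without control replicate 3 (Slc25a27 and Slc25a33), beside 1032 genes, and 1 without knockout replicate 1 (Slc25a29), beside 1116. Without knockout replicate 2 there was 1 (Slc25a39), beside 1392 genes. Without knockout replicate 3 there were 3 (Slc25a28, Slc25a30 and Slc25a47), beside 1205 genes. The other alternatives had 0 carriers. The sign of the change was the same in every alternative for 19 carriers and turned in at least 1 for the other 19, whose changes were at most 0.13 in size. Median-of-ratios scaling moved the carriers' median from −0.03 to −0.01. Over all genes, 58 passed in the reported fit, 74 with the filter at 5 TPM, 72 with robust eBayes, 37 with no filter on low values, 28 without the variance trend and 20 to 53 with a library left out. With the replicate number as a block 38 passed and no carrier did. The deviations of same-numbered libraries from their group means had small correlations (0.035, 0.031 and 0.013), though each library correlated best with its own number. The labels do not say whether the numbers pair samples, and correlations this small cannot decide it. The cause of these shifts in count was not tested, beyond the smaller number of samples where a library was left out. Depth is unknown, and with 3 libraries per group the intervals of carriers under 10 TPM are wide.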
